A study of Mus musculus with 6 samples.

Results

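The melanosome biogenesis and transport machinery was examined in B16-F1 and D5.1G4, both mouse melanoma lines. It was taken as a list of 42 genes: subunits of the BLOC, AP-1, AP-3 and HOPS complexes, Rab GTPases, their effectors and motors, SNAREs and related proteins. A gene entered through any probe whose RefSeq accession belongs to it, which gave 56 of the 39429 probes on the array and all 42 of the listed genes, out of 20659 genes with a probe. Each line was measured on 3 one-colour Agilent arrays. Both lines were untreated and were grown for 24 h in RPMI-1640 with 10% serum to a confluence of 75% to 95%. B16-F1 belongs to the B16 melanoma of the C57BL/6 mouse, and the labels describe D5.1G4 only as a melanoma line. The series is about melanomas of unequal tumorigenicity, and the lines were compared directly. The labels do not state whether the 3 replicates came from different cultures, so the p-values cover only the scatter of these 6 samples, part of which may be technical. An array of a cell culture reads the RNA of all cells together, and fewer cells expressing a gene cannot be told apart from less RNA per cell.

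Melanosomes are lysosome-related organelles in which pigment cells make and store melanin. Their enzymes leave early and recycling endosomes in carriers that need the AP-1 and AP-3 adaptors and the BLOC complexes, and fuse with the maturing melanosome through SNAREs and HOPS. Finished melanosomes ride on microtubules and are then held at the cell edge by RAB27A, melanophilin and myosin Va. Many of these genes were found through mouse coat colour mutants or through Hermansky-Pudlak syndrome, a human disorder of pigment and platelets.

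Of the 43020 non-control spots of an array, between 53.4% and 62.0% were well above background. The highest shares, 62.0% and 61.7%, were those of B16-F1 replicates 2 and 3, which were scanned together and apart from the other arrays. B16-F1 replicate 1 was scanned with D5.1G4 replicates 2 and 3, and D5.1G4 replicate 1 was scanned alone. All 9 melanosome cargo genes that mark pigment cells (Tyr, Tyrp1, Dct, Pmel, Oca2, Gpr143, Slc45a2, Slc24a5 and Mlana) were well above background on all 6 arrays. So were 4 of 6 melanocyte lineage genes, among them Mitf and Sox10. Of the others, Kit was above background on 3 B16-F1 and 0 D5.1G4 arrays, and Ednrb on 2 and 0. Of the 5 lineage genes tested 3 were called, against 15.2% of all features. Mc1r was higher in B16-F1 (log2 difference 1.11) and Pax3 lower (-1.30), though a second Pax3 probe (-0.78) was not called. Kit was higher by at least 5.06-fold, tested only through the line where it is high. Mitf and Sox10 were not called. Among markers of other cell types, 0 of 5 fibroblast, 3 of 4 macrophage, 3 of 5 keratinocyte and 2 of 5 endothelial genes were bright enough to be tested. Of these, Cdh1 alone was called (lower in B16-F1). It was well above background on 0 B16-F1 and 3 D5.1G4 arrays, so it was tested only through the line where it is high. Its call was lost with normexp background correction (-0.33, adjusted p = 0.806) and with the authors' values (-1.65, adjusted p = 0.0899). The part of other cell types in the results was not tested.

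Transcripts of the melanosome machinery were mostly at like levels in B16-F1 and D5.1G4. A gene was tested if its brightest probe exceeded background clearly on 3 or more arrays, which 40 of the 42 genes met. It was called if the limma test gave an adjusted p of 0.05 or less and the lines differed at least 2-fold. By this rule 4 of the 40 were called (10%), against 15.2% of all 18451 features tested. Rab17, Rabggta and Atp7a rose in B16-F1, where 6.29% of all features were called higher, and Mreg fell, where 8.89% were called lower. A further 6 genes had an adjusted p of 0.05 or less but differed by less than 2-fold: Bloc1s5, Bloc1s4, Vps33a, Hps1 and Hps3 were higher and Rab38 was lower in B16-F1. With them, 10 of 40 (25%) passed on adjusted p alone, 8 higher and 2 lower, where 34.9% of all features passed, 14.5% higher and 20.4% lower.

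The median log2 difference, B16-F1 minus D5.1G4, was 0.05 over the 40 genes and 0.00 over all features, and the median size of the difference was 0.26 against 0.43. In 23 of the 40 genes (57.5%) the difference was smaller than 0.3 log2 units, which held for 36.5% of all features. For 28 genes the 95% interval of the difference lay wholly inside 2-fold in either direction, as it did for 53.7% of all features. Brightness differed too. Of the 40 genes, 27 were in the brightest of 3 equal classes of features by mean signal, where 6.33% of all features were called, and 2 of the 27 were. In the dimmest class 22.0% of all features were called and 2 of 4 genes were, and in the middle class 17.2% and 0 of 9. Of the 37 genes measured on every array, 18 (48.6%) had no overlap between lines, 12 of them higher in B16-F1, against 50.7% of all features.

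**Figure D1:**
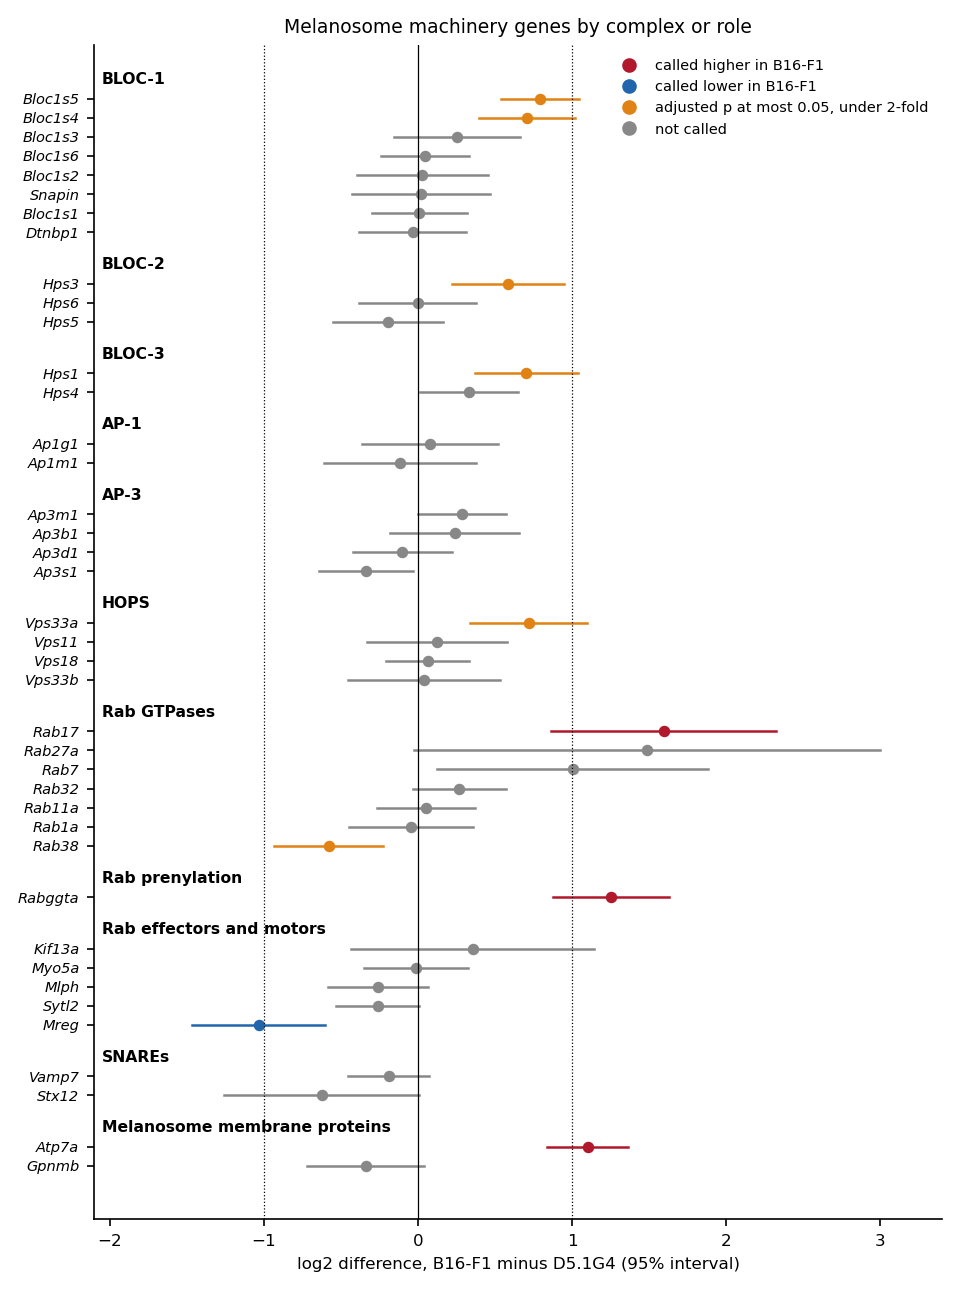
Log2 difference of B16-F1 minus D5.1G4 (x axis) for the 40 tested genes, grouped by complex or role; points are limma estimates from 3 arrays a line, bars are 95% intervals and dotted lines mark 2-fold. The called genes Rab17, Rabggta and Atp7a lie beyond 2-fold on the right, as do Rab27a and Rab7, which were not called, and Mreg lies beyond it on the left; most other intervals include 0.

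**Figure D2:**
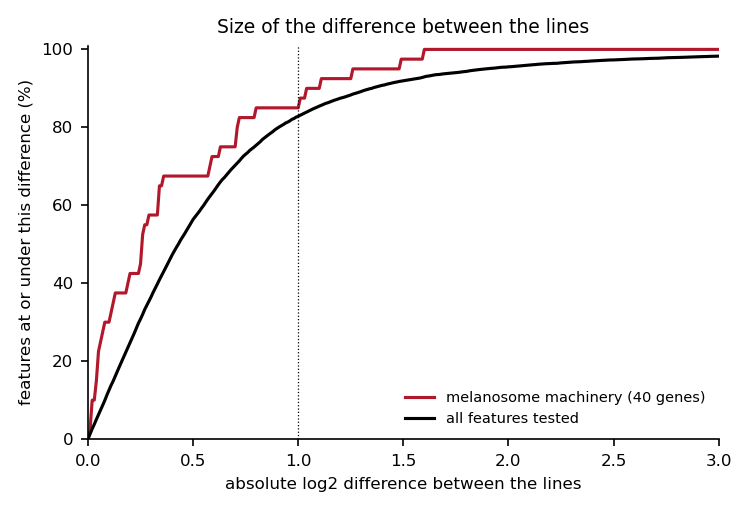
Share of features (y axis, percent) whose log2 difference between the lines is no larger in size than the value on the x axis, for the 40 machinery genes and for all 18451 features tested; the dotted line marks 2-fold. The curve of the machinery genes lies above that of all features at small differences, with 57.5% against 36.5% under 0.3.

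Rab GTPases are switches that mark a membrane and recruit its motors and tethers. Signals below are log2 values relative to the 75th percentile of the array, set at 0, and are not comparable between probes of different genes. Rab17, on chromosome 1, encodes a Rab linked to recycling endosomes and to melanosome release. In replicate order, its signal was -1.51, -2.07 and -2.65 in B16-F1 and -3.93, -3.55 and -3.55 in D5.1G4. All 3 B16-F1 arrays were above all 3 D5.1G4 arrays, although the B16-F1 arrays spread widely (SD 0.57 against 0.22). Rab17 rose 3.02-fold (log2 difference 1.60, SE 0.30, adjusted p = 0.00884). A dimmer Rab17 probe was well above background on 3 B16-F1 arrays and 1 D5.1G4 array, and was not called (1.12, SE 0.46, adjusted p = 0.109 over all probes). With scan run as a block the difference was 2.04 (adjusted p = 0.0151). Only the shared scan run held both lines, so any line difference with this block compares B16-F1 replicate 1 with D5.1G4 replicates 2 and 3. A fit within the shared run makes the same comparison and also gave 2.04. The call was lost with normexp background correction (1.18, adjusted p = 0.0992). In the RefSeq gene table of GRCm38.p6, only Prlh lies between Rab17 and Mlph, the melanophilin gene. Prlh and Mlph differed by 0.44 and -0.26 and were not called.

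Rab38 and Rab32 are close relatives that act in part in place of each other in sending tyrosinase and its relatives to melanosomes, and Rab38 is the gene of the chocolate coat colour mutant. Rab38 read 5.34, 5.64 and 5.53 in B16-F1 and 5.87, 6.20 and 6.17 in D5.1G4. The lines did not overlap, and the gene was 1.49-fold lower in B16-F1 (-0.58, SE 0.15, adjusted p = 0.0255), under the 2-fold limit. Among the 500 features nearest to it in mean signal the median difference was -0.25. Its adjusted p rose to 0.0733 with quantile normalization (-0.32) and to 0.0879 with the authors' values (-0.30). Rab32 differed the other way, by 0.27 (SE 0.12, adjusted p = 0.146), on 3 B16-F1 and 2 D5.1G4 arrays because a spot had been marked an outlier. The log2 ratio of Rab32 to Rab38 signal was -3.08, -3.45 and -3.31 on the B16-F1 arrays and -3.90 and -4.23 on D5.1G4 replicates 1 and 3. It was thus higher on each B16-F1 array, a difference between probes that was not tested further.

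Rab27a, which anchors melanosomes to the actin motor and is lost in the ashen mutant, was not called. It read -2.65, -3.92 and -1.83 in B16-F1 and -3.50, -4.24 and -5.11 in D5.1G4, and was well above background on 3 B16-F1 and 2 D5.1G4 arrays. The lines overlapped, and the difference of 1.49 (SE 0.62, adjusted p = 0.117) had a 95% interval from -0.03 to 3.00. Its value ran from 1.00 without B16-F1 replicate 3 to 2.04 without B16-F1 replicate 2, where it passed (adjusted p = 0.0411). It also passed with normexp (1.10, adjusted p = 0.0379). Within the shared scan run, with B16-F1 replicate 1 alone of its line, the difference was 2.03. Rab7, which acts in late endosomes and in the inward movement of melanosomes, read 0.94, 1.01 and 2.24 in B16-F1 and 0.34, 0.58 and 0.24 in D5.1G4. The third B16-F1 array stood far above the other two. The difference of 1.01 (SE 0.36) had an adjusted p of 0.0774, and without that array it was 0.58 (adjusted p = 0.0481). Leaving out replicate 1 of B16-F1 instead gave a call (1.23, adjusted p = 0.0494), as did a trended, robust variance (adjusted p = 0.0385). Rab11a of recycling endosomes and Rab1a, which serves outward melanosome movement, differed by 0.05 and -0.04, with 95% intervals inside 2-fold (-0.27 to 0.37 and -0.45 to 0.36).

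Every Rab needs a lipid tail, added by Rab geranylgeranyl transferase, to bind membranes. Rabggta, on chromosome 14, encodes the alpha subunit of this enzyme and is mutated in the gunmetal mouse, which is pale and has a platelet defect. It read -2.40, -2.33 and -1.99 in B16-F1 and -3.66, -3.40 and -3.42 in D5.1G4. The lines lay well apart, and Rabggta rose 2.38-fold (1.25, SE 0.16, adjusted p = 0.0019). With scan run as a block the difference was 1.01 (adjusted p = 0.0362), again with B16-F1 replicate 1 alone of its line. With normexp the call was lost (1.05, adjusted p = 0.0632). Rabggta and Rab17 were both among the dimmest of the 3 classes by signal, where the median of all features was shifted upward, to 0.18. The 500 features nearest in signal had a median difference of 0.15 for Rabggta and 0.16 for Rab17. Of the genes that act with it, Chml, an escort protein that presents Rabs to the enzyme, rose by 1.14 (SE 0.14, adjusted p = 0.00162). The other escort gene Chm differed by 0.47 (SE 0.13, adjusted p = 0.0387), under 2-fold, and the beta subunit gene Rabggtb by 0.30 (SE 0.20, adjusted p = 0.292).

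**Figure D3:**
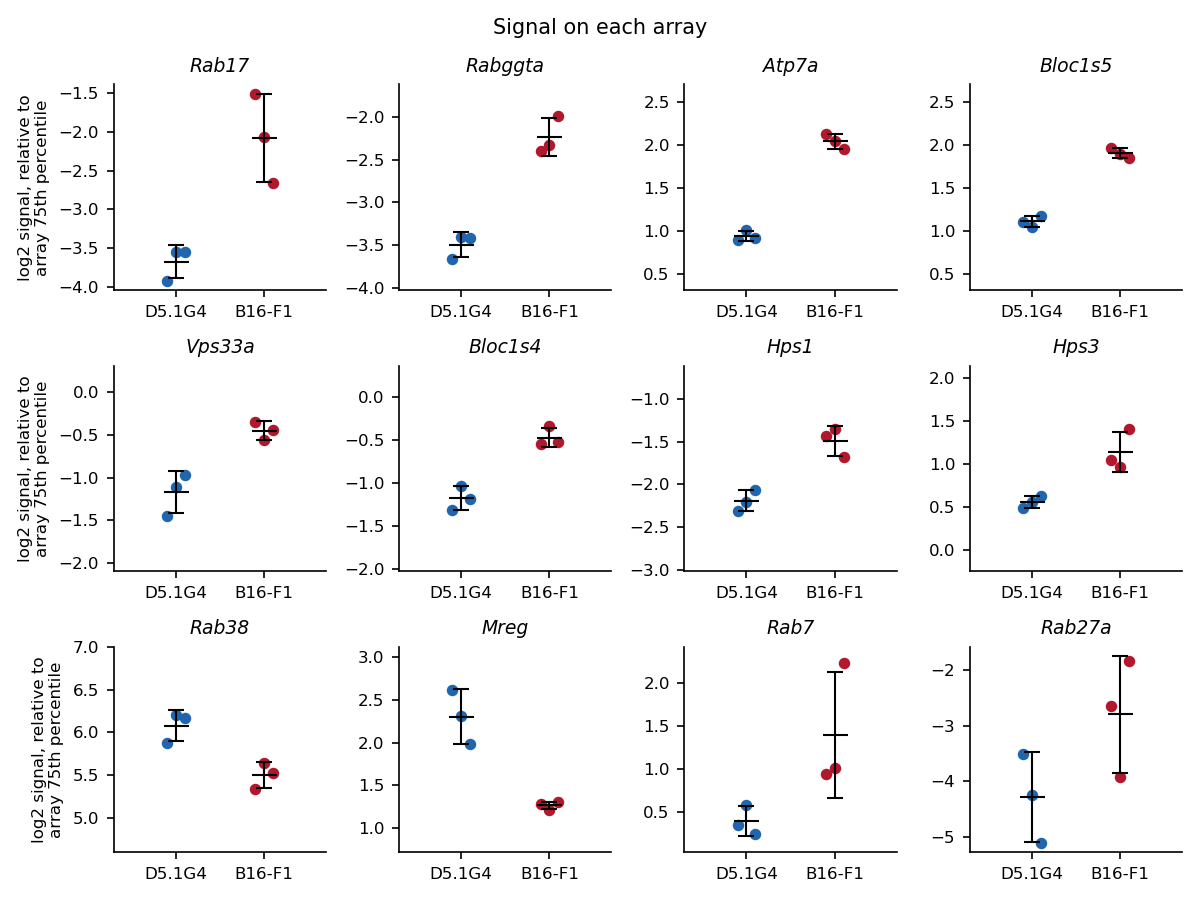
Log2 signal relative to the 75th percentile of the array (y axis) on each of the 3 arrays of D5.1G4 (blue) and B16-F1 (red), for the 10 genes with an adjusted p of 0.05 or less and for Rab7 and Rab27a; points are arrays, black bars are the mean and SD, and each panel has its own range. The lines overlap only in the Rab27a panel, and in the Rab7 panel 1 B16-F1 array lies far above the rest of its line.

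BLOC-1 sorts cargo out of early endosomes, and its 8 subunits are needed together. None was called, and 6 of the 8 differed by less than 0.3 log2 units. Dtnbp1 (dysbindin), Bloc1s1, Bloc1s2, Bloc1s6 (pallid) and Snapin differed by -0.03, 0.01, 0.03, 0.04 and 0.02, each with a 95% interval inside 2-fold. These values are those of the brightest probes. Further probes, none of them called, gave 0.59 and -0.43 for Snapin and 0.60 for Dtnbp1. Bloc1s3 differed by 0.25 (SE 0.17, adjusted p = 0.294). The remaining subunits stood apart from these. Bloc1s5, the muted gene, read 1.96, 1.90 and 1.85 in B16-F1 and 1.10, 1.05 and 1.18 in D5.1G4. It was 1.73-fold higher in B16-F1 (0.79, SE 0.10, adjusted p = 0.00237), with SDs of 0.06 in both lines. Bloc1s4, the cappuccino gene, read -0.55, -0.34 and -0.52 against -1.32, -1.03 and -1.18, and was 1.63-fold higher (0.71, SE 0.13, adjusted p = 0.00759). Both pairs of groups were separate by more than their spread. With scan run as a block the Bloc1s5 difference was 0.85 (adjusted p = 0.0321) and that of Bloc1s4 was 0.56 (adjusted p = 0.0991).

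BLOC-2 and BLOC-3 act after BLOC-1. BLOC-2 directs carriers toward melanosomes, and BLOC-3 switches on RAB32 and RAB38. Of the BLOC-2 genes, Hps3 (cocoa) read 1.04, 0.97 and 1.41 in B16-F1 and 0.48, 0.55 and 0.63 in D5.1G4. The lines did not overlap, and Hps3 was 1.50-fold higher (0.59, SE 0.15, adjusted p = 0.0263; with scan run as a block 0.46, adjusted p = 0.236). Hps5 and Hps6, the ruby-eye genes, differed by -0.19 (SE 0.15) and -0.00 (SE 0.16), and the arrays of the lines overlapped in both. Of the BLOC-3 genes, Hps1 (pale ear) read -1.43, -1.35 and -1.69 in B16-F1 and -2.31, -2.21 and -2.06 in D5.1G4. This made it 1.63-fold higher (0.70, SE 0.14, adjusted p = 0.0103; with scan run as a block 0.70, adjusted p = 0.086). Its partner Hps4 (light ear) differed by 0.33 (SE 0.13, adjusted p = 0.0963), and a second Hps4 probe gave 0.38. Neither complex held a called gene.

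Adaptor complexes select cargo on endosomes, AP-3 for tyrosinase and AP-1 mainly for its relatives. On their brightest probes, none of the 6 listed AP-1 and AP-3 genes was called or had an adjusted p of 0.05 or less. A further Ap1g1 probe was called (1.75) and another was not (0.17). Second probes of Ap3s1 and Ap3m1 gave 0.75 and 0.16 and were not called. Other chains of these complexes are given with the wider list. The AP-1 genes Ap1g1 and Ap1m1 differed by 0.08 (SE 0.18) and -0.12 (SE 0.20). The AP-3 genes ran from -0.34 for Ap3s1 (SE 0.12, adjusted p = 0.0831) to 0.28 for Ap3m1 (SE 0.12, adjusted p = 0.111). Between them lay Ap3d1, the mocha gene (-0.10, SE 0.13), and Ap3b1, the pearl gene (0.24, SE 0.17). On the brightest probes all 6 intervals lay inside 2-fold.

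HOPS tethers late endosomes, lysosomes and melanosomes before fusion. Vps33a, the gene of the buff mutant, read -0.35, -0.57 and -0.45 in B16-F1 and -1.44, -1.11 and -0.97 in D5.1G4. Its lines lay apart, and it was 1.65-fold higher in B16-F1 (0.72, SE 0.16, adjusted p = 0.0153; with scan run as a block 0.69, adjusted p = 0.0559). Its relative Vps33b, which works in a separate complex, differed by 0.04 (SE 0.20), Vps18 by 0.07 (SE 0.11) and Vps11 by 0.12 (SE 0.19), and the arrays of the lines overlapped in all of them. Of the SNAREs, which drive fusion, Vamp7 differed by -0.19 (SE 0.11, adjusted p = 0.226). Stx12, syntaxin 13 of early and recycling endosomes, differed by -0.62 (SE 0.20, adjusted p = 0.114), but outlier marks left only 2 B16-F1 arrays and 1 D5.1G4 array.

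Effectors and motors move and hold the organelle. Mreg, on chromosome 1, encodes melanoregulin, the dilute suppressor, which acts in inward melanosome movement and transfer. It read 1.28, 1.22 and 1.30 in B16-F1 and 2.62, 2.31 and 1.98 in D5.1G4. The B16-F1 arrays lay close together (SD 0.04) and below all D5.1G4 arrays, which spread more (SD 0.32). Mreg fell 2.05-fold (log2 difference -1.03, SE 0.18, adjusted p = 0.00645), close to the 2-fold limit. With scan run as a block it was -0.86 (adjusted p = 0.0514), from B16-F1 replicate 1 against D5.1G4 replicates 2 and 3. Without D5.1G4 replicate 1 it was -0.87 (adjusted p = 0.0106), and the call was lost in both settings. Without the arrays of the first scan run it was -1.02 and was not called, with B16-F1 replicate 1 alone of its line.

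Of the partners of Rab27a in holding melanosomes on actin, neither was called. Myo5a, the myosin Va gene of the dilute mutant, read 3.95, 3.73 and 3.66 in B16-F1 and 3.92, 3.84 and 3.62 in D5.1G4. The ranges coincided, with a difference of -0.01 (SE 0.14, 95% interval -0.35 to 0.32). Mlph, the leaden gene, which joins RAB27A to myosin Va, read 1.51, 1.54 and 1.29 against 1.54, 1.76 and 1.81. Its difference was -0.26 (SE 0.13, adjusted p = 0.191). Sytl2, a RAB27A effector at the plasma membrane, differed by -0.26 (SE 0.11, adjusted p = 0.122). Kif13a, the kinesin that brings recycling endosomes to melanosomes with AP-1, differed by 0.35 (SE 0.32, adjusted p = 0.435), with 1 low D5.1G4 array (0.20 against 1.29 and 1.34). Exph5, another RAB27 effector, was well above background on 2 B16-F1 and 0 D5.1G4 arrays and was not tested. Lyst, the beige gene that sets the size of lysosome-related organelles, was also above background on 2 B16-F1 and 0 D5.1G4 arrays. It read -6.55, -4.79 and -2.77 in B16-F1 and -5.78, -7.28 and -7.46 in D5.1G4. The lines overlapped, 1 B16-F1 array was at background, and the gene was not tested.

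Of the melanosome membrane proteins, Atp7a rose. This gene on chromosome X, mutated in mottled mice, encodes the pump that loads tyrosinase with copper. It read 2.13, 2.05 and 1.95 in B16-F1 and 0.90, 1.01 and 0.92 in D5.1G4. The gap between the lines was far wider than the spread in either (SD 0.09 and 0.06), and Atp7a was 2.15-fold higher (1.10, SE 0.11, adjusted p = 0.000837). With scan run as a block the difference was 1.16 (adjusted p = 0.0158), from B16-F1 replicate 1 against D5.1G4 replicates 2 and 3. The call held under all 19 alternatives tried. Gpnmb, a glycoprotein of melanosomes and lysosomes, differed by -0.34 (SE 0.16, adjusted p = 0.149). Of the 9 melanosome cargo genes, 2 were called (22.2%, against 15.2% of all features), and 4 differed upward and 5 downward. On adjusted p alone 4 passed as higher (Slc45a2, Slc24a5, Tyr and Gpr143) and 1 as lower (Mlana). Over all features 14.5% passed as higher and 20.4% as lower by that measure. Gpr143 differed by 0.83 (SE 0.11, adjusted p = 0.00213), under 2-fold. Slc45a2 rose by 1.22, and Slc24a5 rose by 1.13, a call lost with scan run as a block (0.95) and without D5.1G4 replicate 1 (0.95). Mlana was lower, at -0.68 (SE 0.17, adjusted p = 0.0247), under 2-fold. Its adjusted p rose to 0.105 with quantile normalization (-0.26) and to 0.108 with the authors' values (-0.26). For Tyr, the enzyme that receives the copper, the brightest probe gave 0.78 (SE 0.13, adjusted p = 0.00579), under 2-fold. A second Tyr probe gave 1.64 (SE 0.28, adjusted p = 0.00646) and was called, as was the mean over both (1.21).

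The start sites of the genes were searched for the E-box bound by MITF and its relatives TFEB and TFE3, since the machinery is often named among their targets. RefSeq promoter sequences (GRCm38.p6) matched 33 of the 42 genes and were searched over the 250 bases before the start, on both strands. Bloc1s6, Snapin, Ap1m1, Ap3s1, Vps33b, Vps11, Rab38, Sytl2 and Vamp7 had no entry. The core CACGTG was found in 8 of 33 genes (24.2%), against 9.53% of the 10644 tested genes with an entry. The longer TCACGTGA, which contains the core, was found in 5 (15.2%) against 1.67%. CATGTG was found in 3 (9.09% against 9.46%), the CLEAR element, a longer palindrome that contains both TCACGTGA and the core, in Vps33a alone (3.03% against 0.517%), and CCAAT in 11 (33.3% against 40.8%). The 5 genes with TCACGTGA are given with their sequence because 3 of them were higher in B16-F1 on adjusted p, of which Atp7a alone was called. The motif is in capitals, with up to 11 bases on each side and none beyond the start.
Atp7a, chrX:106027125-106027154, plus strand: cgtgctcccttTCACGTGAcgtggaccatt
Vps33a, chr5:123573026-123573055, minus strand: agcgactcggaTCACGTGAacgtcccgtca
Hps3, chr3:20035311-20035337, minus strand: ggtcgcagcgcTCACGTGAtccggagc
Bloc1s3, chr7:19508371-19508390, minus strand: cataactcggcTCACGTGAc
Bloc1s1, chr10:128923526-128923555, minus strand: aggctcttgcgTCACGTGAtactgcgatca
The motif ended 80 bases before the start in Atp7a, 21 in Vps33a, 8 in Hps3, 1 in Bloc1s3 and 12 in Bloc1s1, and Vps33a held it at 2 places. The Vps33a copy shown in capitals is that farther from the start. The CLEAR element lies at the other copy, which is not shown in full. The log2 differences of the genes in the order listed were 1.10, 0.72, 0.59, 0.25 and 0.01. Across the array, 178 tested genes held TCACGTGA. Of these 15.7% were called, 14 higher and 14 lower, with a median difference of 0.02. On adjusted p alone, the measure used for the 3 higher genes above, 33 were higher (18.5%) and 37 were lower. Over all features 14.5% were higher and 20.4% lower by that measure. A lean of genes with the motif to either line was not tested. Rab17, Rabggta and Mreg did not hold CACGTG in this window.

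Further probes of the same gene were available for 12 of the 42 genes, 14 probes in all, and 11 were tested. In a fit with each probe as its own feature, 2 of the 11 were called, both higher in B16-F1, where 15.7% of all 22142 probes were called. The second Bloc1s5 probe was well above background on 3 B16-F1 and 0 D5.1G4 arrays, so it was tested only through the line where it is high. It is 1 of the 2 called, and its B16-F1 signal was higher by at least 3.01-fold. One of the further Ap1g1 probes gave 1.75 (SE 0.35, adjusted p = 0.0104), while the brighter Ap1g1 probes gave 0.08 and 0.17. The probes of Snapin disagreed in sign: the brightest gave 0.02 and the others 0.59 (SE 0.16, adjusted p = 0.0291) and -0.43 (SE 0.12, adjusted p = 0.035). Second probes gave 0.67 for Vps18 (SE 0.17, adjusted p = 0.0231), 0.60 for Dtnbp1 and 0.75 for Ap3s1, whose brightest probe gave -0.34. Differences were positive in 10 of the 11 further probes. Among all tested probes in the dimmest of 3 equal classes 60.5% were positive, and in the brightest class 39.6%. The part of probe brightness in these disagreements was not tested.

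**Figure D4:**
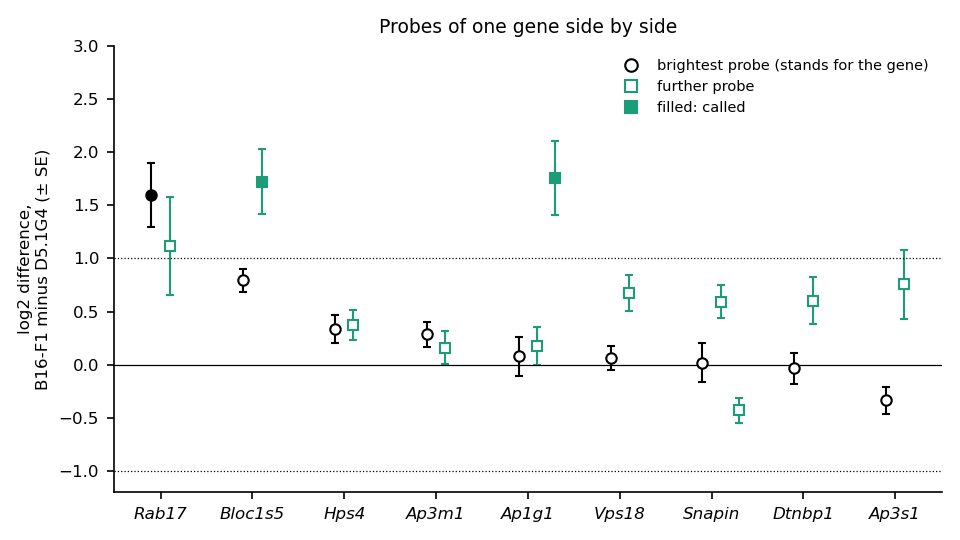
Log2 difference of B16-F1 minus D5.1G4 (y axis) for the 9 genes with a further tested probe; black circles are the brightest probe, green squares further probes, bars are the SE, filled symbols were called and dotted lines mark 2-fold. The second probe of Bloc1s5 was at background in D5.1G4, and that of Rab17 on 2 of 3 D5.1G4 arrays, so their sizes are not exact. The probes of Hps4 and Ap3m1 lie close together, while those of Ap1g1, Bloc1s5, Snapin and Ap3s1 lie apart.

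The wider trafficking machinery was a list of 70 other genes of the same pathways. The 62 tested had a median difference of 0.07. Of these, 10 were called (16.1%), 6 higher and 4 lower. Over all features 15.2% were called, 6.29% higher and 8.89% lower. Among the 10, Rab27b, Dynll1 and Kif5a were above background only in the line where they are high. Among genes well above background on all 6 arrays, 7 of 59 were called, 5 higher and 2 lower, against 2126 of all 15933 such features. Of other AP-1 and AP-3 chains, 1 of 7 was called: Ap1s2, a small AP-1 chain, rose by 1.24 (SE 0.12, adjusted p = 0.000875), and its second probe gave 1.26. On adjusted p alone 3 of the 7 passed as higher, namely Ap1s2, Ap1g2 (0.70) and Ap3m2 (0.40), and 1 as lower, Ap1b1 (-0.73). Over all features 14.5% passed as higher and 20.4% as lower. None of 6 other HOPS and CORVET genes was called. Of 15 Rab regulators and effectors 4 were called. Chml and Rab3a, the secretory vesicle Rab (1.80, SE 0.14, adjusted p = 0.000391), rose. Rab27b, the close relative of Rab27a, fell at least 2.30-fold and was not well above background in B16-F1, and Sytl4, a Rab27 effector, fell by 1.07 (SE 0.14, adjusted p = 0.00232). The Sytl4 call was lost with scan run as a block (-0.84) and without B16-F1 replicate 3 (-0.98).

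Among further motor genes, Dynll1, a light chain of dynein and myosin Va, rose at least 3.10-fold on a probe that was not above background in D5.1G4. Of 10 SNARE genes, Stx3, a syntaxin reported on melanosomes, fell by 1.13 (SE 0.17, adjusted p = 0.00366), a call lost with scan run as a block (-0.88). Apoe, which acts in the sorting of PMEL fibrils, was the 1 called of 7 genes of that list and rose by 1.66 (SE 0.20, adjusted p = 0.00165). Kif5a, a kinesin, was the 1 called of 9 retromer and recycling genes and fell at least 2.95-fold. With normexp the Rab27b, Sytl4, Dynll1, Stx3 and Kif5a calls were lost, and 5 wider genes were called, all of them higher.

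**Figure D5:**
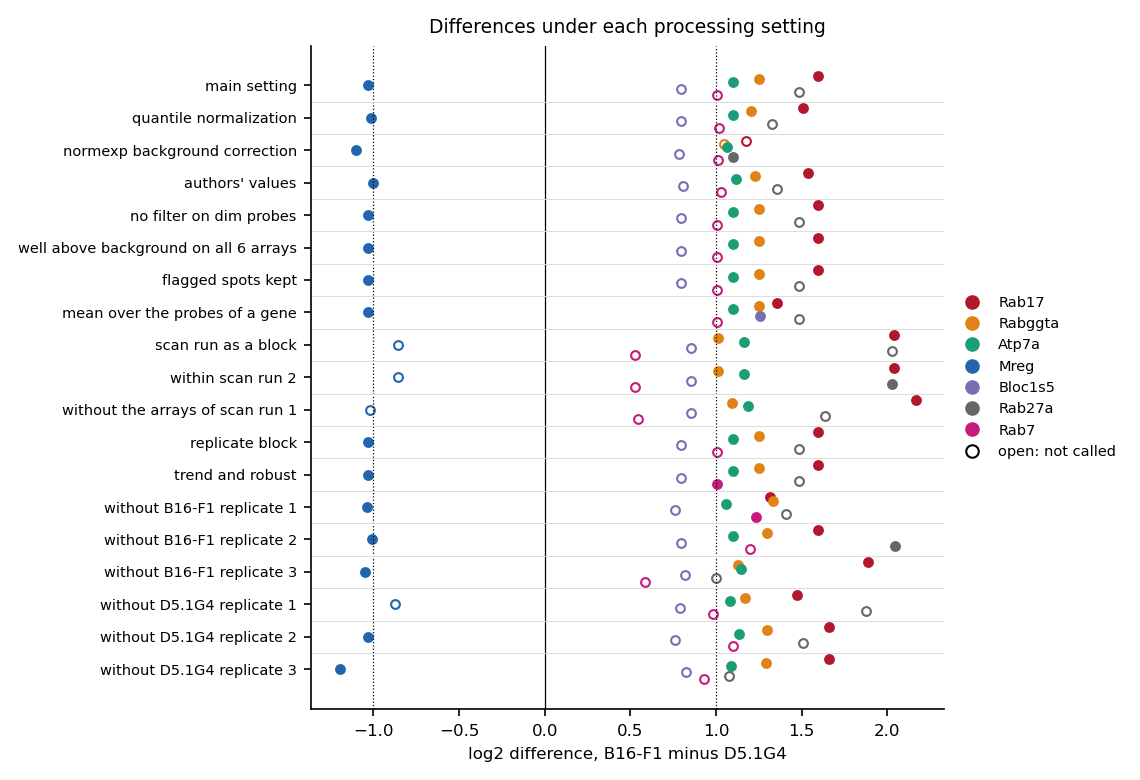
Log2 difference of B16-F1 minus D5.1G4 (x axis) of 7 genes under the main setting and each alternative processing except the unadjusted p (y axis); filled points were called, open points were not, and dotted lines mark 2-fold. Atp7a is called under every setting shown, Rab17 and Rabggta in all but normexp, and Mreg drops inside 2-fold or loses its call when scan runs or D5.1G4 replicate 1 are taken out.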

How the data were processed

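RNA of the 6 samples was measured on Agilent mouse 4x44K arrays. The deposited intensity had been made with Agilent Feature Extraction 11.0.1.1, per the submitters' processing notes, and its background and trends had been removed within the array, per the file headers. The other deposited columns flag each spot with 0 or 1 for background, saturation and outliers, per the file headers. The authors' own deposited table holds log2 values, whose normalization the sources used here do not give. The array's annotation is on mm9.

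From these, log2 of the processed intensity was taken, the array's 75th percentile (signal 838.9 to 2034.6) was subtracted, spots marked outlier or non-uniform (0.67% to 1.58%) were dropped, and repeated spots were then averaged by probe. Saturation was marked on 0 spots. Of the probes, 69.1% matched a gene of the GRCm38.p6 RefSeq table by accession. The probe with the highest mean stood for a gene. Lines were compared with limma 3.58.1 in R 4.3.3, 2-sided, with a single term for the line and p-values adjusted by Benjamini-Hochberg across the 18451 features. "At least" folds compare the mean of the brighter line with a floor averaged over the arrays of the dimmer line. On each array the floor was the lowest signal above background, or the probe's own signal if higher. Background was flagged for each spot, so these folds are approximate bounds. The number of arrays limits precision. Normexp (offset 50) used the median spot signal, since the mean signal was not used here. Arrays scanned at one time were treated as a scan run. Same-numbered arrays of the lines did not deviate together (r = -0.39, -0.03 and -0.30), so replicate numbers were not treated as pairs. All 42 genes are named, with the wider genes that were called, except 1 result that is not reported here; members and lists were chosen with earlier results of these data known.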

Additional observations from a re-analysis of the deposited data

How the results depend on the processing

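Across 19 alternatives, 737 of 750 values of the machinery genes kept their side of the test, 6 lost a call and 7 gained one. No called gene changed direction, and 17 genes that were not called changed sign at least once. The number of machinery genes called stayed between 3 and 5. With normexp, which also replaced the processed by the median spot signal, 1251 features were called (536 higher, 715 lower) in place of 2800, 5 wider trafficking genes in place of 10 and 3 machinery probes in place of 6. With scan run as a block, 3 machinery probes were called. Leaving out each array in turn gave 3 to 5 machinery genes, 6 to 8 machinery probes, 9 to 11 wider genes and 2531 to 3379 features. On adjusted p alone 10 machinery genes passed, against 4 with normexp and 5 with scan run as a block. That block takes the line difference from B16-F1 replicate 1 alone of its line. So do the fits within the shared scan run and without the arrays of the first scan run, whose counts are not given. Averaging the probes of a gene brought Bloc1s5 past the call (1.26, adjusted p = 0.0025), through a probe at background in D5.1G4. The replicate block changed no machinery gene call (4 called, 3 higher and 1 lower, and 2585 of all features). Outlier marks left Rab32, Rab11a and Stx12 on fewer arrays. Signals near background, as in Rab27a, Lyst and Exph5, limited what could be compared.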
